A study of Rattus norvegicus with 30 samples.

Results

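The change examined here took place between 3 and 12 h of osteogenesis (OS) in rat bone marrow mesenchymal stem cells (BMSCs). The 3 samples titled as OS at 12 h were set against the 3 samples titled as OS at 3 h, which together are 6 of the 30 samples of the series. No gene was chosen in advance, so all 9999 gene names entered, values under a shared name were summed, and the 4363 genes that reached 1 CPM (reads scaled to a common library size) in 3 or more of the 30 samples were tested. According to the methods of the study, marrow from 3 female Sprague Dawley rats aged 3 weeks was grown to passage 2 and then moved into a commercial osteogenic medium, whose composition is not given in the sources used here. Sister cultures received adipogenic (AD) or chondrogenic (CH) medium and were collected at the same times and at 72 h, and undifferentiated cells (CON) were collected at 0 h. Each sample was a pool of 3 cultures, and the labels do not tie a sample to a rat. The p-values therefore measure only the spread between pools, estimated within all 10 groups of the series. Uninduced cells from 3 or 12 h were not among the samples, so the effect of the medium, time in culture and time of collection cannot be told apart.

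BMSCs are adherent stromal cells that can form bone, fat and cartilage. When such cells receive a new medium, genes for growth factor signalling, matrix remodelling and the cytoskeleton are often switched on for a short time, and cells that enter the division cycle first express genes for copying DNA, which E2F factors control, and later the genes of mitosis. Commitment to the osteoblast lineage is carried by factors such as RUNX2, SP7 and the DLX family, and ends in the deposition of a mineralized collagen matrix.

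Depth was 6329536 to 7229002 reads per sample at 3 h and 6564527 to 6690194 at 12 h, with medians of 6381895 and 6637759, and the listed genes held 63.1 to 68.8% and 68.7 to 71.4% of them. A level of 3 reads, 0.415 to 0.474 CPM in these samples, was taken as the floor, which covers counting error only. The library of OS at 3 h replicate 3 stood apart, with 366 genes at least 1 log2 unit from the mean of the other replicates, against 115 and 133 for replicates 1 and 2 and 41 to 65 at 12 h. Among stromal markers, the hyaluronan receptor Cd44 lay at 1202 to 2014 CPM at 3 h and 1186 to 1219 CPM at 12 h, whereas Eng (at most 0.149 CPM in the 6 samples) and Pdgfrb (at most 0.632 CPM) were at or near 0, and 7 of the 16 stromal names were not analysed here. Beta-actin (Actb), which every cell uses, was itself listed at 0 to 5.39 CPM, so a listing near 0 was not read as absence. The defining myeloid gene Lyz2 and the lymphoid genes Cd2 and Cd8a did not exceed 0.152 CPM. The 5 myeloid markers listed summed to 0.313 to 0.692 CPM at 3 h and 0.598 to 0.914 CPM at 12 h. The summed level of the 3 endothelial markers listed was 3.32 to 5.53 CPM at 3 h and 0.904 to 2.24 CPM at 12 h. The part of other cells in any result below was not tested.

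Between 3 and 12 h, 341 of the 4363 tested genes (7.82%) passed both thresholds, a change of 1 or more log2 units and an adjusted p under 0.05, and are called rises or falls here. Of these, 205 (4.70% of the genes tested) rose and 136 (3.12%) fell. The genes with the largest rises included the hypoxia-inducible prolyl hydroxylase Egln3, the tight junction gene Cldn1 and the peptide hormone gene Apln, and those with the largest falls included Sema7a, Has2, Socs2 and Chsy1. In 331 of the 341 genes the samples of the groups did not overlap, beside 34.9% of all genes tested. The calls were made on these same samples, so this separation is not added evidence. The median size of the change was 1.25 among the genes that rose and 1.38 among those that fell, in log2(CPM + 1) units, a scale on which low genes appear to change less than they did. By the adjusted p alone 990 genes (22.7%) passed, 641 of them higher (14.7%). The balance of directions depended on the method, since edgeR on the recovered reads called 166 genes higher and 283 lower. Without OS at 3 h replicate 3, 237 genes were called higher and 124 lower.

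**Figure D1:**
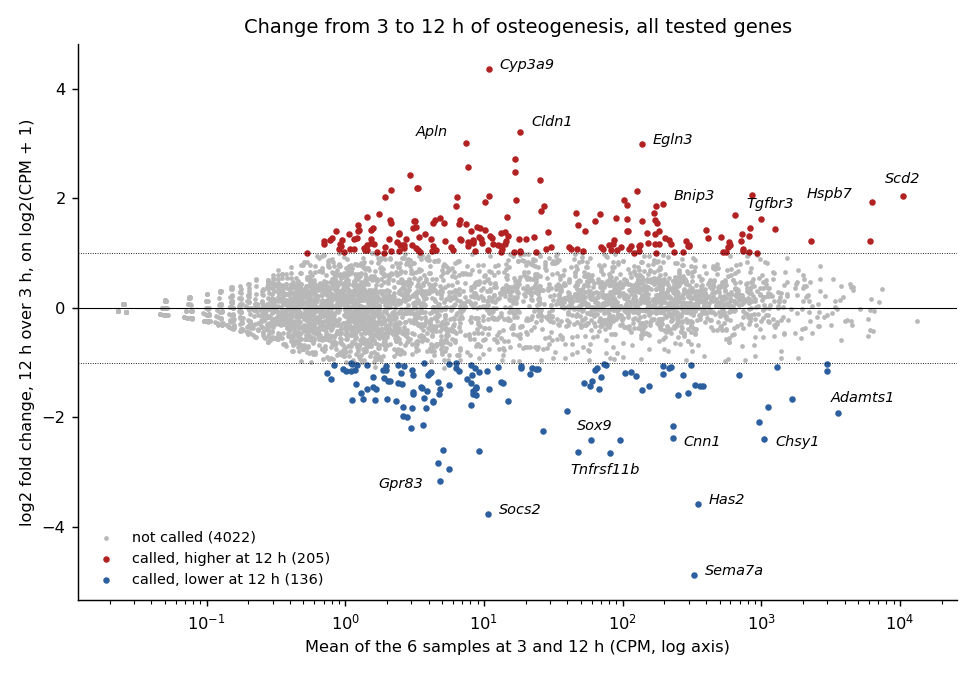
Each point is 1 of the 4363 genes tested, with the mean of the 6 samples in CPM on a log axis and the log2 fold change from 3 to 12 h on log2(CPM + 1), and dotted lines at a change of 1 in size. The 205 genes that rose (red) and the 136 that fell (blue) lay among low and abundant genes alike, with Cyp3a9 and Sema7a at the extremes.

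The falls began with genes for cell surface signals and for the matrix that cells build around themselves. Sema7a, a membrane-anchored semaphorin that binds integrins, was at 533, 503 and 878 CPM at 3 h and at 21.1, 20.6 and 18.4 CPM at 12 h (log2 fold change -4.88, SE 0.166, adjusted p = 2.01e-19). All 3 samples at 12 h were far below every sample at 3 h, although replicate 3 at 3 h was higher than the other two. Has2, a synthase of the matrix polysaccharide hyaluronan, was at 706, 708 and 513 CPM and then at 50.02, 50.4 and 55.4 CPM (log2 fold change -3.59, SE 0.267, adjusted p = 1.4e-11). Chsy1, which elongates chondroitin sulphate chains, was at 1768, 1825 and 1722 CPM and then at 323, 351 and 335 CPM (log2 fold change -2.39, SE 0.111, adjusted p = 5.61e-16). These enzymes supply large sugar polymers of the pericellular matrix. The largest falls and rises were named only where the samples of the times did not overlap, so their separation is not added evidence.

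Of the 24 tested members of the matrix structure list, 5 fell and 1 rose, beside 3.12 and 4.70% of all genes tested (median log2 fold change -0.14, beside 0.04 for all). The other members that fell were Cemip, which takes part in hyaluronan breakdown, the collagens Col5a1 and Col8a2, and the fibrillin Fbn2, with log2 fold changes of -1.16 to -1.47. The member that rose was the laminin chain Lama5, at 1068, 1025 and 2190 CPM at 3 h and 3003, 3250 and 3096 CPM at 12 h. Without OS at 3 h replicate 3 the count of members that fell was 3, with Cemip and Col8a2 among those lost, and edgeR called 6 lower and none higher. Among 17 proteases and inhibitors, the aggrecanase Adamts1 fell from 5488, 5393 and 6250 CPM to 1504, 1520 and 1468 CPM, and the plasminogen activator Plau from 38.1, 37.0 and 58.7 CPM to 7.08, 9.72 and 8.53 CPM. The membrane metalloproteinase Mmp16 rose, from 5.21 to 7.19 CPM to 13.9 to 18.5 CPM.

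The actin and contractile list moved mainly downward. Of its 25 tested members, 9 fell (36% of them, beside 3.12% of all genes tested) and 1 rose. The median log2 fold change was -0.54, and -1.27 to -0.54 under the alternatives. The smooth muscle protein calponin 1 (Cnn1) was at 382, 393 and 387 CPM at 3 h and at 71.1, 74.4 and 74.3 CPM at 12 h (log2 fold change -2.39, SE 0.168, adjusted p = 4.39e-12). Transgelin (Tagln), which binds actin filaments, went from 54.5, 56.6 and 77.9 CPM to 19.0, 14.8 and 14.9 CPM. Within each gene the replicates at 12 h lay closer together than the distance between the times. The other falls were Csrp1, Actg2, vinculin (Vcl), Myl6, the tropomyosins Tpm1 and Tpm2, and Cald1, with log2 fold changes of -1.10 to -1.67. Without OS at 3 h replicate 3, 8 of the 10 calls of the list were kept, and Myl6 was among those lost. When only these 6 samples were fitted, 7 members fell. The intermediate filament gene Des rose, from 0.968 to 2.37 CPM to 6.78 to 7.46 CPM. The sum over the listed members of the group was 11473 to 11837 CPM at 3 h and 6701 to 6949 CPM at 12 h. In bulk RNA, fewer cells of a type and less RNA per cell cannot be told apart.

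Genes of signalling and inflammation moved in both directions. Socs2, a feedback inhibitor of cytokine and growth hormone signals, was at 25.4, 25.6 and 11.9 CPM at 3 h and at 0.452, 0.897 and 0.305 CPM at 12 h (log2 fold change -3.77, SE 0.344, adjusted p = 1.04e-09). Interleukin 1 beta (Il1b) fell from 7.99, 9.48 and 10.8 CPM to 1.05, 0.897 and 0.305 CPM, and Il1rl1, the receptor of interleukin 33, from 1677, 1866 and 1643 CPM to 474, 492 and 509 CPM. The levels of all 3 genes at 12 h lay below every sample at 3 h, which the naming rule required of Socs2 and Il1b. In the cytokine list of 19 tested members, 3 fell and 2 rose, beside 3.12 and 4.70% of all genes tested. Its median log2 fold change was 0.10, and -0.09 to 0.21 under the alternatives. Il1a was among those that fell (not called when only these 6 samples were fitted), and the chemokines Cxcl3 and Cxcl10 rose, with log2 fold changes of 1.55 and 1.30. Of 16 immediate-early and MAPK feedback genes (median -0.33), the phosphatases Dusp4 and Dusp2 and the matricellular gene Cyr61 fell, whereas Klf10 and Jun rose. Dusp4, which inactivates MAP kinases, was at 338, 331 and 468 CPM and then at 84.7, 85.3 and 80.0 CPM. Jun, a subunit of AP-1, was at 6.89, 7.58 and 6.64 CPM and then at 21.1, 17.0 and 21.0 CPM.

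The remaining genes among the 15 largest falls had varied roles. The orphan receptor Gpr83 was at 9.56, 8.69 and 10.1 CPM at 3 h and at 0.603, 0 and 0 CPM at 12 h, and Hcar2, the receptor of the ketone body hydroxybutyrate, at 8.77, 9.01 and 14.4 CPM and then 0.603, 0.299 and 0.609 CPM. Slco2a1, a carrier of prostaglandins, the kinase scaffold Akap12, the protease-like Prss35 and the glycosyltransferase Galnt18 had log2 fold changes of -2.42 to -2.83. Among 18 heat shock and ER stress genes, 3 fell (beside 3.12% of all genes tested) and none rose. Their median log2 fold change was 0.15, and -0.01 to 0.23 under the alternatives. Those that fell were the amino acid starvation factor Atf4 and its known targets Chac1 and Sesn2, whereas the chaperone genes Calr and Dnaja1 were at 0.64 and 0.63. Chac1, which degrades glutathione, went from 96.2, 82.0 and 124 CPM to 33.6, 35.0 and 35.8 CPM (log2 fold change -1.49, SE 0.178, adjusted p = 2.06e-07). Atf4 itself went from 1689, 1630 and 1994 CPM to 832, 854 and 828 CPM, and its log2 fold change of -1.07 became -0.98 without OS at 3 h replicate 3.

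Among the rises, the genes of DNA replication were the list with the largest share of members called. Of 17 tested members, 10 rose (58.8%, beside 4.70% of all genes tested) and none fell, the median log2 fold change was 1.15, and it was 0.96 or higher under every alternative. Mcm6, a subunit of the helicase that opens DNA at replication origins, was at 466, 401 and 464 CPM at 3 h and at 1181, 1246 and 1209 CPM at 12 h (log2 fold change 1.45, SE 0.117, adjusted p = 7.3e-11). Tyms, which makes the thymidine nucleotide for DNA, was at 88.7, 97.0 and 82.3 CPM and then at 266, 260 and 263 CPM (log2 fold change 1.55, SE 0.130, adjusted p = 1.76e-10). Both genes were higher in every sample at 12 h than in any at 3 h. The helicase subunits Mcm3 and Mcm4, the clamp loader subunits Rfc2, Rfc3 and Rfc4, Gins1, Rpa2 and the factor gene E2f2 also rose, with log2 fold changes of 1.13 to 1.55. With edgeR 9 members were called, and without OS at 3 h replicate 3, 11 were. The list summed to 2328 to 2457 CPM at 3 h and 5495 to 5706 CPM at 12 h.

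The promoters of 8 of the 10 replication genes that rose were in the RefSeq table of assembly GRCr8, which gives 250 bases before and 50 after each annotated start. The E2F letters TTTCGCGC or TTCCCGCC stood on either strand in 5 of the 8 and in 8 of 14 tested members, beside 2.35% of all 27457 promoters. Windows of up to 40 bases on each side are shown for the 5, ending at most 30 bases past the start, because they let the shared letters be seen in their context. Capitals mark the E2F letters or their reverse complement, and each sequence runs 5′ to 3′ along the gene's own strand. They lie at chr9:30733717-30733793 on the minus strand for Mcm3, chr13:42404440-42404527 minus for Mcm6, chr12:27769996-27770050 minus for Rfc2, chr12:5836525-5836597 plus for Rfc3, and chr11:91254223-91254302 plus for Rfc4. A match is a description of the letters and was not tested as a binding site.
Mcm3: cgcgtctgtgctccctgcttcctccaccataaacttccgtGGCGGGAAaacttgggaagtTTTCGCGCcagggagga
Mcm6: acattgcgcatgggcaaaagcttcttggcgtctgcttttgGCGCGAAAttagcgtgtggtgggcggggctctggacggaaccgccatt
Rfc2: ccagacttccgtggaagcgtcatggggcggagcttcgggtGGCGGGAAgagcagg
Rfc3: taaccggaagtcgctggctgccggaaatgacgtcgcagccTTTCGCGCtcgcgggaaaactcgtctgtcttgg
Rfc4: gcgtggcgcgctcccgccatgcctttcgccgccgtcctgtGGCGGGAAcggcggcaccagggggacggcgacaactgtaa

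Of 28 tested members of the mitosis and kinetochore list, 7 rose (25%, beside 4.70% of all genes tested) and none fell, with a median log2 fold change of 0.63, but edgeR called 3 and 5 were called without OS at 3 h replicate 3. Kif11, the motor that pushes spindle poles apart, was at 326, 372 and 207 CPM at 3 h and at 750, 674 and 737 CPM at 12 h (log2 fold change 1.29, SE 0.169, adjusted p = 8.44e-07). Hmmr, a spindle-associated hyaluronan-binding protein, was at 148, 152 and 58.9 CPM and then at 262, 226 and 259 CPM. In both genes replicate 3 was the lowest sample at 3 h. Cdca3, Mad2l1, Ncaph, Kif22 and Nuf2 were the other members that rose, whereas Top2a (log2 fold change 0.98) and Birc5 (0.94) stayed under the threshold of size. The list summed to 1971 to 2035 CPM at 3 h and 3619 to 3675 CPM at 12 h. Gene names that start with Hist, a group picked after their values were seen, had 18 tested members. Of these 7 rose (beside 4.70% of all genes tested) and none fell (beside 3.12%). Reads of near-identical histone copies may be shared among these names.

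The cell cycle homology letters TTTGAA, on either strand, stood in the promoters of 4 of the 7 mitotic genes that rose (Hmmr, Kif22, Mad2l1 and Nuf2) and of 16 of 23 tested members, beside 18.1% of all promoters, and these letters do not occur within the E2F motif. The E2F letters stood in 1 of the 7, Ncaph. The windows of Hmmr (chr10:25665216-25665301, minus strand) and Kif22 (chr1:191080849-191080934, minus strand) are shown because their match lay upstream of the annotated start, with the TTTGAA letters or their reverse complement in capitals.
Hmmr: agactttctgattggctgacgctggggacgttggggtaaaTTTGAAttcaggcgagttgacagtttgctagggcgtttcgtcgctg
Kif22: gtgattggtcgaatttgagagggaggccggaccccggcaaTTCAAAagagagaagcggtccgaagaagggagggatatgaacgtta

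Genes known as targets of hypoxia-inducible factors were also among the rises. Of 19 tested members of the hypoxia and glycolysis list, 5 rose (26.3%, beside 4.70% of all genes tested) and none fell (median log2 fold change 0.28), and edgeR called 3 higher and 1 lower. Egln3, which marks hypoxia-inducible factors for degradation, was at 29.0, 30.02 and 30.6 CPM at 3 h and at 237, 248 and 248 CPM at 12 h (log2 fold change 2.99, SE 0.228, adjusted p = 2.33e-11). Bnip3, a mitophagy receptor, was at 78.2, 71.9 and 98.2 CPM and then at 292, 326 and 309 CPM (log2 fold change 1.90, SE 0.124, adjusted p = 9.08e-13). Ndrg1, a stress-induced cytoplasmic protein, was at 42.2, 47.4 and 51.3 CPM and then at 205, 218 and 202 CPM. The replicates of each gene were close, and the times were well separated. Car12 and Pdk1, a carbonic anhydrase and the kinase that turns off pyruvate dehydrogenase, also rose, with log2 fold changes of 1.35 and 1.15, and neither was called by edgeR. Glycolytic enzymes stayed under the threshold, with Pgk1 at 0.76 and Ldha at 0.17. The core letters ACGTG stood in the promoters of 3 of 4 members that rose (Bnip3, Car12 and Pdk1), in 11 of 17 tested members and in 19.7% of all promoters.

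Of 20 tested members of the sterol and fatty acid synthesis list, 4 rose (beside 4.70% of all genes tested) and none fell, with a median log2 fold change of 0.52. The farnesyl diphosphate synthase gene Fdps was at -0.96, and 1 member was called lower under 7 of 14 alternatives, edgeR and median-ratio scaling among them. Scd2, a desaturase that makes monounsaturated fatty acids, was at 3909, 3862 and 4537 CPM at 3 h and at 16505, 17523 and 16616 CPM at 12 h (log2 fold change 2.04, SE 0.123, adjusted p = 1.87e-13). Sqle, which makes squalene epoxide for cholesterol, went from 489, 468 and 502 CPM to 1533, 1519 and 1453 CPM. The other rises were Insig1, which retains the sterol sensor in the endoplasmic reticulum, and the squalene synthase Fdft1, whose call was lost with edgeR and with quantile normalization. The sterol letters TCACNCCAC stood in none of the 12 promoters of this list that were in the table, beside 1.13% of all promoters. The adipocyte list, which shares the lipid theme, had 11 tested members, of which Lpl fell (from 267, 283 and 268 CPM to 104, 122 and 129 CPM) and none rose.

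The largest rise belonged to Cyp3a9, a cytochrome P450 of steroid and drug metabolism, at 0, 0.316 and 0 CPM at 3 h and 21.2, 20.3 and 23.0 CPM at 12 h. With 2 reads at 3 h and 428 at 12 h, the ratio was 215 with an exact 95% counting interval of 59 to 1780. Cldn1 rose from 2.82, 2.37 and 3.04 CPM to 32.4, 36.5 and 32.4 CPM (log2 fold change 3.22, SE 0.498, adjusted p = 1.32e-05), and Apln from 0.783, 0.474 and 1.38 CPM to 12.7, 12.9 and 16.5 CPM. In all 3 genes the samples at 12 h were close together and above those at 3 h. The rule for naming them required that separation. C5ar2, a receptor of complement C5a, Gch1, which starts tetrahydrobiopterin synthesis, the heparanase Hpse, the costimulatory gene Cd80, the integrin Itgb7 and Itih2, an inter-alpha-trypsin inhibitor chain that binds hyaluronan, had log2 fold changes of 2.20 to 2.72. Ppp1r3b, a glycogen-targeting subunit of a phosphatase, had 3 reads at 3 h and 82 at 12 h, a ratio of 27.4 with an interval of 9.05 to 136. Among abundant genes, the muscle heat shock gene Hspb7 rose from 2474, 2521 and 2825 CPM to 9873, 10591 and 9419 CPM.

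**Figure D2:**
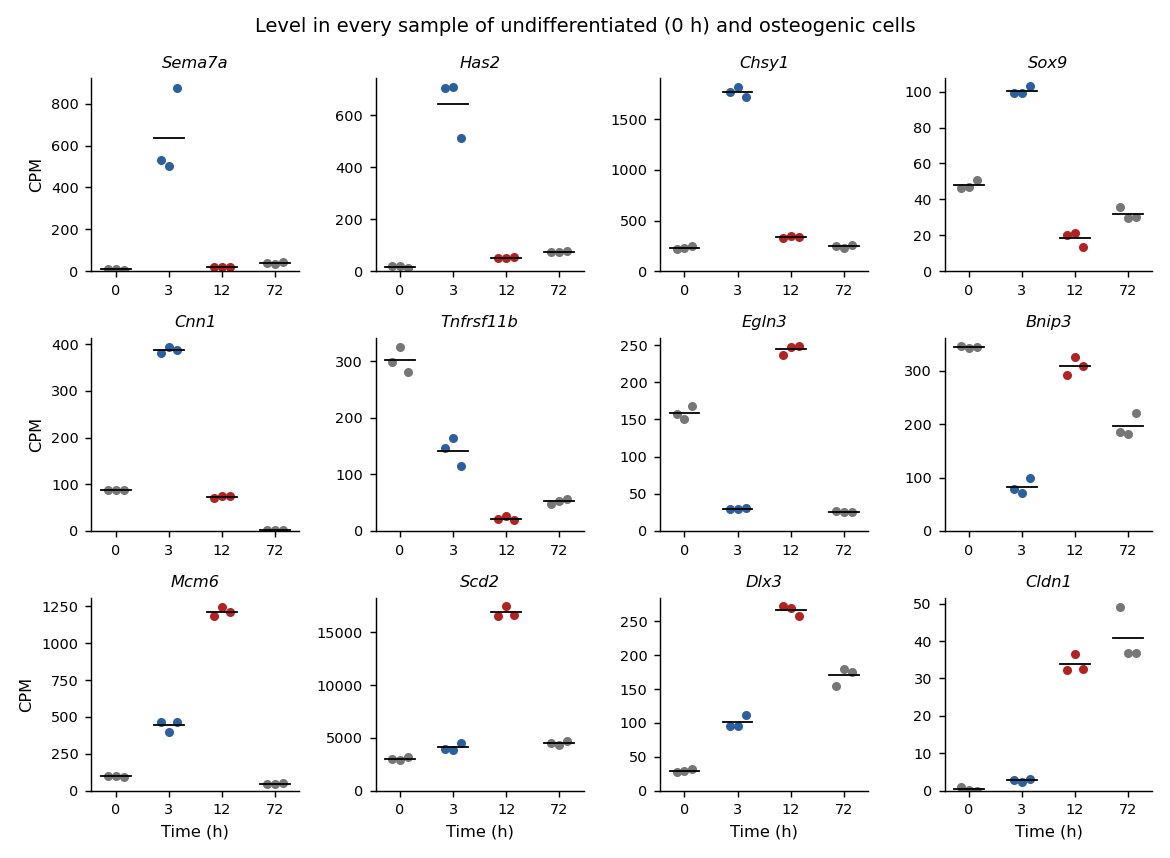
Levels in CPM of 12 genes in every sample in undifferentiated cells (0 h) and after 3, 12 and 72 h in osteogenic medium, with each point a sample, lines at the group means and linear axes that start at 0. Sema7a, Has2, Chsy1, Sox9 and Cnn1 peak at 3 h, Mcm6, Scd2 and Dlx3 at 12 h, and Cldn1 stays up at 72 h.

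Set beside the other times of osteogenesis, the genes followed different courses. Has2 was at 16.6 ± 3.13 CPM at 0 h (SD, n = 3), 643 ± 112 CPM at 3 h, 51.9 ± 3.04 CPM at 12 h and 74.9 ± 2.68 CPM at 72 h, and Chsy1 at 231 ± 19.0, 1771 ± 51.5, 336 ± 14.1 and 245 ± 12.0 CPM. Both genes thus had their highest mean at 3 h. Mcm6 was at 99.2 ± 4.38, 444 ± 37.2, 1212 ± 32.8 and 46.2 ± 3.12 CPM, and Kif11 at 82.3 ± 2.12, 302 ± 85.1, 720 ± 40.6 and 12.7 ± 1.42 CPM, with the highest mean at 12 h and the lowest at 72 h. Egln3 was at 158 ± 8.78, 29.9 ± 0.803, 244 ± 6.32 and 26.1 ± 0.253 CPM, so that 3 and 12 h lay on either side of the level at 0 h. Tgfbr3, a co-receptor of TGF-beta and the member of the TGF-beta and BMP list that rose, was at 863 ± 18.7, 310 ± 47.9, 994 ± 11.7 and 4247 ± 170 CPM. These courses share the samples at 3 and 12 h with the main comparison and are given as levels only.

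Of 32 names in the osteoblast and mineralization list, 19 were listed and 10 were tested. Of these 1 rose (beside 4.70% of all genes tested) and 2 fell (beside 3.12%), and the falls numbered 1 without OS at 3 h replicate 3 and 4 by edgeR. The median log2 fold change was -0.35, and -1.3 to -0.24 under the alternatives. The homeobox factor Dlx3 rose from 95.6, 95.3 and 111 CPM to 272, 270 and 258 CPM (log2 fold change 1.40, SE 0.296, adjusted p = 6.92e-04). Tnfrsf11b, which encodes osteoprotegerin, the decoy receptor that restrains osteoclast formation, fell from 147, 165 and 114 CPM to 20.3, 25.7 and 19.0 CPM (log2 fold change -2.65, SE 0.194, adjusted p = 1.05e-11). The samples of the times did not overlap in either gene, which the naming rule required of Tnfrsf11b. Atf4 was the other member that fell. The mineralization inhibitor Mgp was at 131 to 199 CPM at 3 h and 134 to 152 CPM at 12 h, the cadherin Cdh11 at 515 to 676 and 500.3 to 539 CPM, and Msx2 at 11.5 to 15.8 and 15.1 to 17.9 CPM. Bone sialoprotein (Ibsp) was at 2.35 to 3.92 CPM and then 1.07 to 1.81 CPM, and Phex, Postn and Smpd3 did not exceed 1.11 CPM. Alkaline phosphatase (Alpl) was listed at 0 in all 6 samples and Sp7 did not exceed 0.138 CPM, while Runx2 and Col1a1 were not analysed here. Of 9 tested chondrocyte genes, Sox9 fell (11.1%, beside 3.12% of all genes tested) and none rose. The median log2 fold change of that list was -0.34, and -1.61 to -0.20 under the alternatives.

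Among the 131 tested transcription factors (TFs) of the study, 12 rose and 10 fell, shares of 9.16 and 7.63% beside 4.70 and 3.12% of all genes tested. The study chose these TFs on these samples, so the counts are not independent evidence of change. Sox9, the master factor of cartilage, was at 99.2, 99.5 and 103 CPM at 3 h and at 20.2, 21.2 and 13.4 CPM at 12 h (log2 fold change -2.42, SE 0.143, adjusted p = 1.78e-13). Ets2, a target of MAP kinase signalling, fell from 155, 156 and 221 CPM to 65.2, 72.6 and 81.8 CPM. The forkhead factor Foxf1 fell from 6.42, 3.48 and 8.58 CPM to 0.904, 0.897 and 1.83 CPM, and the limb homeobox gene Hoxd13 from 19.9, 18.3 and 11.8 CPM to 4.37, 5.83 and 5.33 CPM. The other falls, Tsc22d1, Sox11, Atf4, Prdm16, Foxn1 and Atoh8, each lost their call under at least 1 alternative, and 7 TFs were called lower without OS at 3 h replicate 3 but 18 by edgeR. Hbp1, a repressor of cell cycle genes, rose from 153, 138 and 121 CPM to 295, 315 and 311 CPM (log2 fold change 1.16, SE 0.091, adjusted p = 3.89e-11), but was not called by edgeR, at 0.998. The paired-box factor Pax8 rose from 7.36, 7.58 and 4.84 CPM to 24.7, 20.9 and 22.2 CPM. Hopx, a homeodomain protein that does not bind DNA, was at 5.33, 5.06 and 6.22 CPM and then at 14.3, 13.6 and 13.7 CPM, and its call (log2 fold change 1.19) was lost with edgeR and with a pseudocount of 0.1. Rfx2, E2f2, Dlx3, Jun, Klf10, Zfp39, Meox2 and the unnamed loci AABR07015743.1 and AABR07060287.1 were the other rises. Of these, AABR07060287.1 lost its call under 7 of 14 alternatives, Meox2 under 5 and Zfp39 under 2.

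**Figure D3:**
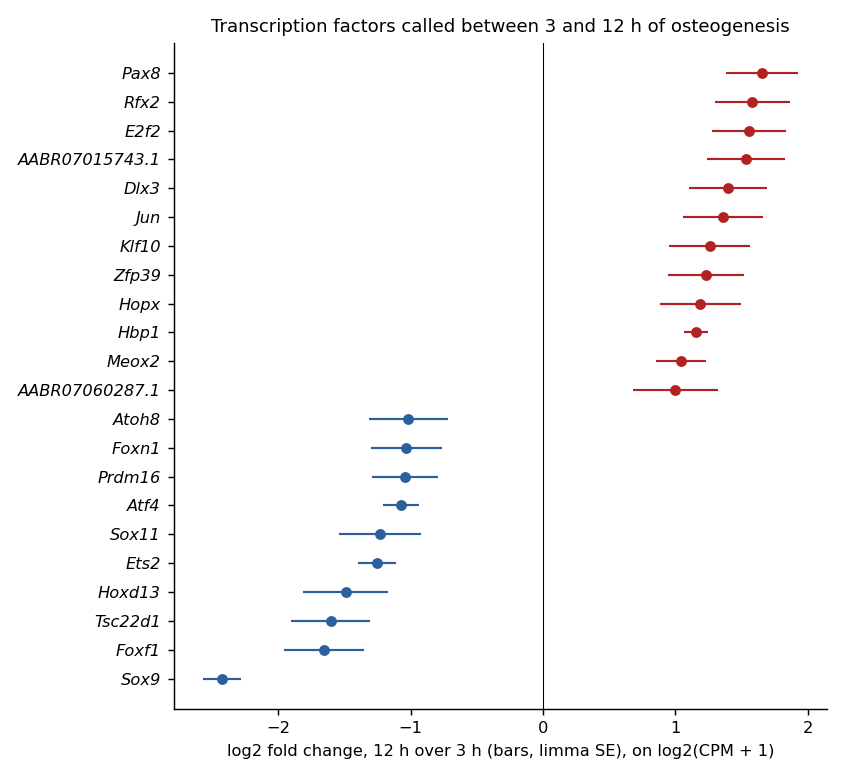
Log2 fold change from 3 to 12 h on log2(CPM + 1) of the 22 TFs of the study that were called, with the SE of limma as bars, rises in red and falls in blue. Sox9 has the largest change, at -2.42, and the largest rise is that of Pax8, at 1.66.

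Several lists had few or no called members. Beside 4.70% higher and 3.12% lower of all genes tested, a single call in a small list can still be a larger share. None of 21 tested genes of Wnt signalling was called by limma (edgeR called 2 lower). By the adjusted p alone 3 of the 21 were lower and none higher. This was a larger share lower than the 349 of all 4363 genes tested. The largest changes by limma were those of the secreted inhibitor Sfrp2 (log2 fold change -1.09, adjusted p = 0.34) and the receptor Fzd9 (-0.96, adjusted p = 0.0476). None of 18 ribosome biogenesis genes was called (edgeR called 1 lower), with Rrp12 at -0.88 and Nip7 at -0.68. By the adjusted p alone 5 of the 18 were lower and 1 higher, again a larger share lower than among all genes tested. Of 13 genes of TGF-beta and BMP signalling, the ligand Gdf6 fell (log2 fold change -1.83) and Tgfbr3 rose (1.69), each 7.69% of the list. Of 16 interferon response genes, the ADP-ribosyltransferase Parp14 rose from 66.0, 79.3 and 60.5 CPM to 221, 191 and 211 CPM and the peptide transporter Tap1 also rose. These rises were 12.5% of the list. Of 9 glucocorticoid-responsive genes, the metabolic regulator Txnip rose (log2 fold change 1.23) and Crispld2 fell (-1.44), each 11.1% of the list. Among the 6 tested clock genes only the repressor Cry2 was called, at -1.10, and its call was lost without OS at 3 h replicate 3 and without OS at 12 h replicate 3. Bhlhe40 was at -0.68, Bhlhe41 at -0.86, Csnk1d at -0.73, Arntl at 0.15 and Nr1d1 at 0.14.

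**Figure D4:**
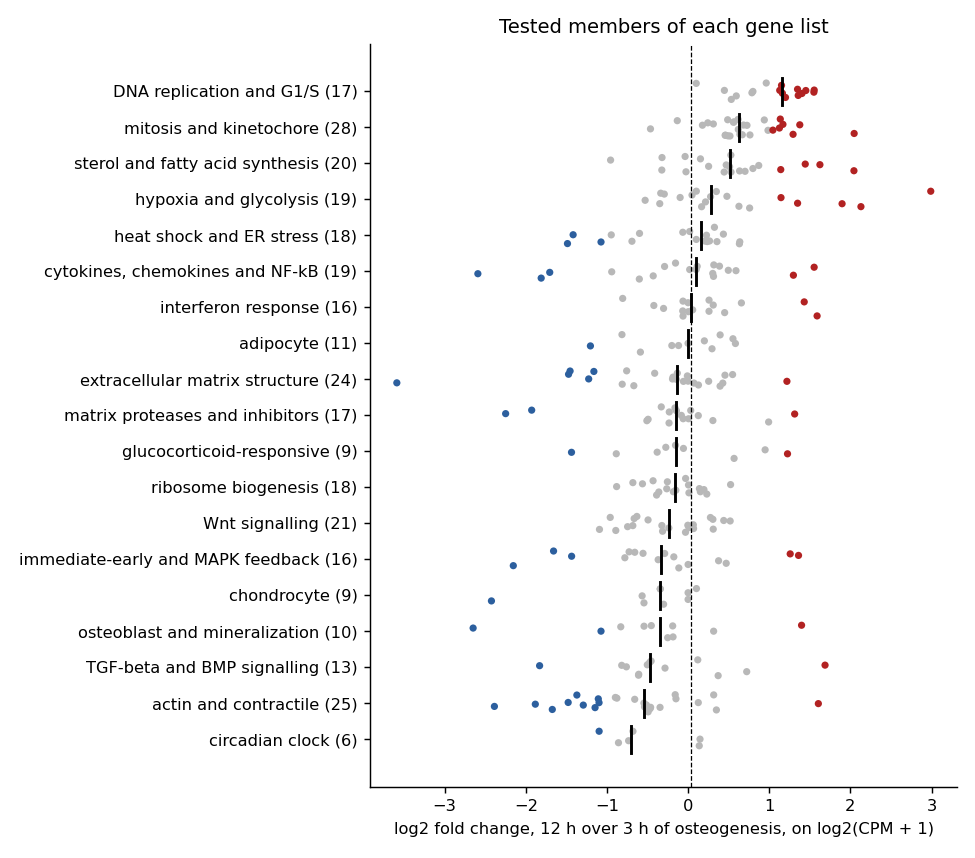
Log2 fold change from 3 to 12 h on log2(CPM + 1) of the tested members of 19 gene lists, with called rises in red, called falls in blue, other members in grey, the list median as a black bar, the median of all genes as a dashed line and the number tested in brackets. DNA replication has the highest median, 1.15, and the actin list has 9 blue points, from -1.10 to -2.39.

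The same interval was examined in the cultures given the other media. In AD 565 genes were called (12.9%), of which 224 rose (5.13%) and 341 fell (7.82%), and in CH 335 were called (7.68%), of which 76 rose (1.74%) and 259 fell (5.94%). Of the 205 genes that rose in OS, 42 also rose in AD (20.5% of the OS list and 18.8% of the AD list) and 14 fell, whereas 6 rose and 62 fell in CH (30.2% of the OS list and 23.9% of the CH list). Of the 136 genes that fell in OS, 65 fell in AD (47.8% of the OS list and 19.1% of the AD list) and none rose, and 33 fell and 4 rose in CH. The lineages share no samples at these times. Across all 4363 genes the changes correlated at r = 0.38 between OS and AD and at r = -0.07 between OS and CH, where genes are not independent. The AD library at 12 h replicate 1 also stood apart (299 genes at least 1 log2 unit from the other replicates), and without it 39 of the OS rises rose in AD and 62 of the OS falls fell there, with 3 that rose.

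The change itself differed between OS and AD for 484 genes (11.1%), 320 higher in OS (7.33%) and 164 lower (3.76%), where each difference was tested as an interaction with limma. With edgeR, 168 were higher and 209 lower, and with samples rescaled to the listed genes 233 were higher and 211 lower. Egln3 rose in OS but fell in AD, from 43.4 ± 3.48 to 5.44 ± 1.93 CPM (SD, n = 3), a difference of 5.82 on the log2 scale (SE 0.323, adjusted p = 6.37e-14). Of the 19 hypoxia and glycolysis genes, 8 had a higher change in OS (7 by edgeR) and none a lower one, and the list's median change was -0.55 in AD. Jun fell in AD from 36.0 ± 4.09 to 7.98 ± 7.91 CPM, and Dlx3 went from 232 ± 2.25 to 94.1 ± 83.1 CPM there, with a wide spread at 12 h. Gprc5a, a retinoic acid-induced receptor, fell in AD from 94.3 ± 7.66 to 1.28 ± 1.495 CPM and was at 63.5 ± 3.31 CPM in OS at 12 h. Its own change in OS was not called, with a log2 fold change of -0.90 to -0.50 under the alternatives. In the other direction, the growth factor Ptn rose in AD from 15.6 ± 0.718 to 227 ± 102 CPM and was at 15.8 ± 2.17 and 11.7 ± 0.865 CPM in OS, and the aldehyde oxidase Aox1 rose in AD from 19.0 ± 4.05 to 373 ± 107 CPM. The sterol list had 5 rises in AD beside 4 in OS, and none of its 20 genes differed between the lineages by limma (edgeR called 1 lower in OS).

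Between OS and CH the change differed for 616 genes (14.1%), 448 higher in OS (10.3%) and 168 lower (3.85%). The split was 314 and 278 with edgeR, 345 and 233 with median-ratio scaling and 345 and 261 with quantile normalization. The cell cycle gave the broadest difference, since 14 of 17 replication genes and 22 of 28 mitotic genes had a higher change in OS (13 and 20 by edgeR) and none a lower one. Mcm6 fell in CH from 708 ± 40.2 to 128 ± 10.7 CPM, and Kif11 from 449 ± 49.4 to 84.4 ± 3.42 CPM, while both rose in OS. In CH itself 11 replication genes and 21 mitotic genes fell and none rose, with median log2 fold changes of -1.35 and -1.65. In AD, 1 replication gene fell, 1 mitotic gene rose, and the medians were 0.26 and 0.27, and the change in OS was higher than in AD for 6 replication genes (3 by edgeR) and 3 mitotic genes (1 by edgeR). The replication sum was 2238 to 2464 CPM at 3 h in AD and 3211 to 3509 CPM in CH, beside 2328 to 2457 CPM in OS, so CH began higher. Has2 went the other way, rising in CH from 48.3 ± 1.04 to 249 ± 10.4 CPM as it fell in OS, a difference of -5.93 (SE 0.378, adjusted p = 3.05e-13). Plau and Dusp4 also rose in CH and fell in OS. Of the 25 actin and contractile genes, 10 fell in AD and 9 in OS but none was called in CH, and for 7 the change was lower in OS than in CH (8 by edgeR).

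**Figure D5:**
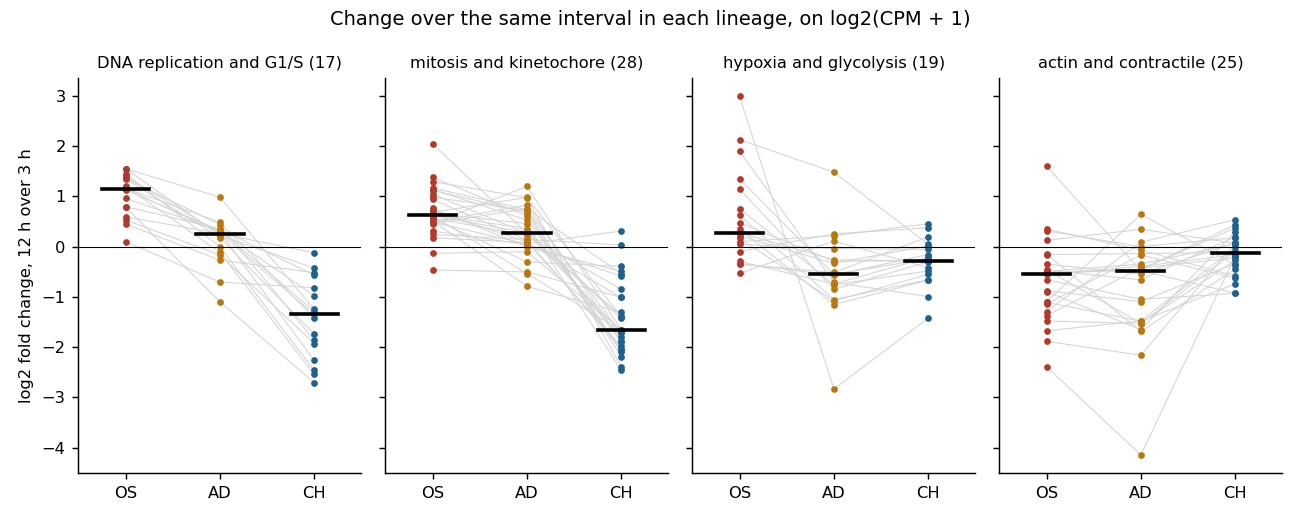
Log2 fold change from 3 to 12 h on log2(CPM + 1) of the tested members of 4 lists in osteogenesis (OS), adipogenesis (AD) and chondrogenesis (CH), with each point a gene, thin lines joining the same gene and black bars at the medians. The replication median is 1.15 in OS, 0.26 in AD and -1.35 in CH, and the hypoxia median is above 0 in OS alone among the 3 media.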

How the data were processed

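RNA was measured in 30 samples of 10 groups, 3 per group, of which the 6 samples of OS at 3 and 12 h were compared here, with AD and CH at the same times. The files deposited by the authors are named for FPKM but hold CPM: within each sample all values were whole multiples (tolerance 0.01) of the lowest one that was not 0, and this step was used to recover reads. This differs from the unit the test had been planned for, and the test was kept. The submitters' processing notes name Trimmomatic, HISAT2 and StringTie, while versions and the genome build are not given in the sources used here. The labels mention removal of ribosomal RNA and the methods an mRNA kit. Reads shared by near-identical genes (histones, unnamed loci, cytochrome families) may have been split, and the way the authors counted them is not given in the sources used here. Of 10803 values per sample, those under 729 repeated names were summed.

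Tests used limma 3.58.1 in R 4.3.3 with a mean-variance trend. The input was log2(CPM + 1) of 4363 genes that reached 1 CPM in 3 or more samples, and 1 model held all 10 groups without covariates. Thresholds were those of the methods of the study, an absolute log2 fold change of 1 and a p of 0.05 after Benjamini-Hochberg adjustment, and were also applied to differences between lineages. SEs are those of limma. The genes named were the 15 largest rises and 15 largest falls without overlap of the groups, every TF called, the called members of each list (up to 6 per direction) or else the 2 largest changes, all tested osteoblast and clock genes, and the 6 largest differences per direction between lineages. Genes outside this rule, namely Hspb7, Ldha, Pgk1, Top2a, Birc5, Actb, Eng, Alpl and Sp7, the promoter examples and other list members, were chosen after their values were seen. The comparison, the lists and the tests were chosen with earlier results of these data known.

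Alternatives were edgeR 4.0.16 (quasi-likelihood test) on recovered reads, a pseudocount of 0.1, no filter, median-ratio scaling, quantile normalization, rescaling to the listed genes, a fit of only the groups compared, a replicate block and each replicate left out. Simulated data for the OS comparison had 200 of 4363 genes changed by a log2 fold of 2. There limma recovered 179, all 123 with at least 10 CPM among them, and called 4 of 4163 unchanged genes. EdgeR recovered 178 and called 3. Changed genes were drawn from those with at least 1 CPM at 3 h, with directions drawn evenly. Smaller changes, lower genes and an uneven balance of directions were therefore not covered. Promoters are from RefSeq, and 8356 names matched a current symbol and 454 a synonym. Tables came from pandas 2.3.3 and scipy 1.17.1 under Python 3.11.15, and plots from matplotlib 3.10.9.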

Additional observations from a re-analysis of the deposited data

Results flagged for a closer look

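The change from 3 to 12 h differed between lineages by a test of the difference itself, for 484 genes between OS and AD and for 616 genes between OS and CH, and the 12 largest differences of each pair, named by rule, kept their call under every alternative. Differences are in log2 units, OS minus the other lineage. Against AD, the change in OS was higher for Egln3 (5.82), Gprc5a (4.89), the methyltransferase gene Mettl7b (3.80), the interleukin 1 receptor kinase Irak2 (3.77), Jun (3.74) and Gch1 (3.74). It was lower for the IGF-binding protein Igfbp5 (-6.00), Ptn (-4.09), Hcar2 (-3.51), Aox1 (-3.44), the chemokine Cxcl6 (-3.44) and NEWGENE_620180 (-3.25). Igfbp5 in AD at 12 h was at 369 ± 345 CPM (SD, n = 3), a spread almost as wide as its mean, and its level in OS was 2.14 ± 1.27 and 2.21 ± 0.241 CPM. Against CH, the change in OS was higher for LOC102549061 (5.62), the linker histone Hist1h1a (4.77), the chemokine receptor Ccr1 (4.68), Cyp3a9 (4.47), Egln3 (4.41) and the ubiquitin ligase Trim17 (4.34). It was lower for Has2 (-5.93), Plau (-4.03), Plxdc2 (-3.63), Sema7a (-3.58), the aggrecanase Adamts4 (-3.58) and Dusp4 (-3.26). Adamts4 was at 7.19 ± 1.59 and 6.39 ± 1.10 CPM in OS and went from 21.6 ± 1.77 to 246 ± 39.9 CPM in CH.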

How the results depend on the processing

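The total of genes called in each comparison stayed within 1.5 times the reported one under every alternative run, but counts by direction did not. With edgeR the OS falls went from 136 to 283, the differences from AD that were higher in OS from 320 to 168, and those from CH that were lower in OS from 168 to 278 (261 with quantile normalization). For OS, 341 genes were called, 240 higher and 204 lower with a pseudocount of 0.1, 160 and 156 with median-ratio scaling, 167 and 145 with quantile normalization, 157 and 155 when rescaled to the listed genes, 201 and 131 without the filter, and 164 and 105 when only these 6 samples were fitted. The median change of all genes was 0.04 and moved to -0.09 with edgeR, which called 166 higher and 283 lower. Leaving out each replicate gave 331 to 392 genes for OS, 396 to 625 for the difference from AD and 568 to 632 for the difference from CH, where a group of 2 shares the spread of the others. A replicate block gave the same 341 genes for OS, 477 for the difference from AD and 612 for that from CH. The numbers were not taken to pair the samples, since the deviations of same-numbered OS samples correlated at 0.068, -0.065 and -0.030. Of 101 named genes called in OS, 71 kept the call under all alternatives and 30 lost it under at least 1, and none of the 101 reversed in direction. Named changes that were not called could cross 0, as that of Nr1d1 did (-0.05 to 0.42). Genes near the floor of 3 reads carry wide counting error.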
